A study of Mus musculus with 20 samples.

Results

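The flavin monooxygenase genes described here are Fmo1, Fmo2, Fmo4 and Fmo5, 4 of 55487 gene identifiers in the liver count table, matched by symbol over 20 libraries, and 1 identifier was found for each symbol. Flavin monooxygenases are enzymes of the endoplasmic reticulum that carry FAD, take electrons from NADPH and add an oxygen atom to nitrogen or sulfur in amines, sulfides and drugs. Trimethylamine, which gut bacteria release from choline and carnitine in the diet and from the trimethylamine N-oxide of fish, is oxidised to trimethylamine N-oxide by flavin monooxygenases of the liver. Fmo1 has this activity among its broad substrates, Fmo2 is best known from lung, Fmo4 is the least studied of the group, and Fmo5 oxidises few amines and instead acts on some ketones.

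All mice were wild-type female C57BL/6J animals of 28 weeks, with RNA from 1 liver in each library. Chow-fed mice (n = 5) stayed on chow throughout. The other groups were given a high-fat diet (HFD) from 8 weeks of age for 10 weeks and then for a further 10 weeks an HFD with 50% of its protein from fishmeal made from salmon by-products (n = 5), from salmon filet (n = 6) or from beef (n = 4), with casein as the rest of the protein. HFD versus chow therefore changed the whole diet, whereas the HFD groups differed in the protein source and in what came with it. Per the study's diet table, cholesterol, added soybean oil and the fatty acid make-up also differed between them, so protein source and these components cannot be told apart. Mouse 31 was labelled as fed salmon filet, but its column in the count table carries the ending for beef. Values are given as labelled, and each comparison with salmon filet or beef was also computed with mouse 31 counted as beef. That grouping gives 5 mice per group, which is the number the paper states for sequencing, whereas the labels do not. It also follows the mouse numbers, 22 to 27 in the other salmon filet mice and 32 to 40 in the mice labelled beef.

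Total counts ranged from 42526234 to 70266136 per library. Protein-coding genes took 93.2% to 95.6% of them, apart from 84.3% in mouse 35 (beef). The 7 hepatocyte markers found added to 108400 to 149900 TPM (transcripts scaled to a fixed total, a level scaled to gene length and library size) in every library, whereas 5 adipocyte markers added to at most 0.577 TPM and 5 exocrine pancreas markers to at most 0.553 TPM. As these are whole-liver samples, fewer cells of a type and less RNA per cell cannot be told apart.

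On the GRCm38 mouse genome (GENCODE M21), Fmo4 (ENSMUSG00000026692, chr1:162793188-162813972), Fmo1 (ENSMUSG00000040181, chr1:162829561-162866610) and Fmo2 (ENSMUSG00000040170, chr1:162874317-162898726) lay close together on the minus strand of chromosome 1. Fmo5 (ENSMUSG00000028088, chr3:97628804-97655282) was on the plus strand of chromosome 3. Their main transcripts had 9 exons in Fmo1, Fmo2 and Fmo5 and 10 in Fmo4. The coding parts were 1599, 1608, 1683 and 1602 bases long in Fmo1, Fmo2, Fmo4 and Fmo5, and no other annotated gene overlapped any of the 4.

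The first 60 coding bases of each gene are shown because they hold the shared FAD-binding motif near the start of the protein. Capitals mark the 3 glycine codons (GGN) of that motif.
Fmo1: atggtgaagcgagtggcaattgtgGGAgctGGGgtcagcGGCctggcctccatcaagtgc
Fmo2: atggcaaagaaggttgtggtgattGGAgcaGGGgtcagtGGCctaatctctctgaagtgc
Fmo4: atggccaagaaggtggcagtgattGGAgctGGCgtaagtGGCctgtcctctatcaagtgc
Fmo5: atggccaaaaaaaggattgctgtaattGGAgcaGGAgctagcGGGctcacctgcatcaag
The motif was searched for with a fixed spacing of its 3 glycine codons, so their equal spacing is not a result. It began 1 codon later in Fmo5. Over the whole coding part, identity between members ran from 61.3% (Fmo1 and Fmo5) to 65.1% (Fmo2 and Fmo4). Of the words of 50 bases, the length of 1 sequenced read, in the main transcripts, 0 were shared with another gene for Fmo1, Fmo2 and Fmo4. For Fmo5 25 of 5148 words were shared, 0 of them in the coding part, so reads of the members were distinct in sequence nearly throughout.

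Fmo5 and Fmo1 were the abundant members. Over all 20 mice Fmo5 averaged 220.0 ± 47.0 TPM (SD, n = 20) and Fmo1 182 ± 29.0 TPM (SD, n = 20), ranks 418 and 518 among 17355 protein-coding genes with a level above 0. Fmo2 followed at 27.8 ± 4.56 TPM (rank 2435) and Fmo4 at 13.2 ± 1.91 TPM (rank 4396). Fmo1 was above Fmo2 and Fmo2 above Fmo4 in 20 of 20 mice, by 4.53 to 8.46 times and by 1.53 to 2.83 times in TPM. The order of the leading genes was not fixed: Fmo1 was above Fmo5 in 3 of 5 chow-fed and 2 of 15 HFD-fed mice. The Fmo1 to Fmo5 ratio ran from 0.637 to 1.1 with a median of 1.02 in chow-fed mice and from 0.604 to 1.1 with a median of 0.789 in HFD-fed mice, so the ranges overlapped. Fmo1 and Fmo5 together made up 87.2% to 92.6% of the summed level of the 4 genes. That sum was 417 to 582 TPM in chow-fed mice (median 520) and 303 to 547 TPM in HFD-fed mice (median 424).

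Counts per library were 18666 to 34600 for Fmo1, 14966 to 48891 for Fmo5, 2540 to 5264 for Fmo2 and 758 to 1469 for Fmo4. Fmo5 varied most between mice of 1 diet in 3 of the 4 groups, the exception being salmon filet, where Fmo2 did. Its coefficient of variation in TPM was 13.4% to 29.3% over the 4 groups, against 9.84% to 17.2% for Fmo1, 8.11% to 19.0% for Fmo4 and 8.71% to 24.0% for Fmo2.

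**Figure D1:**
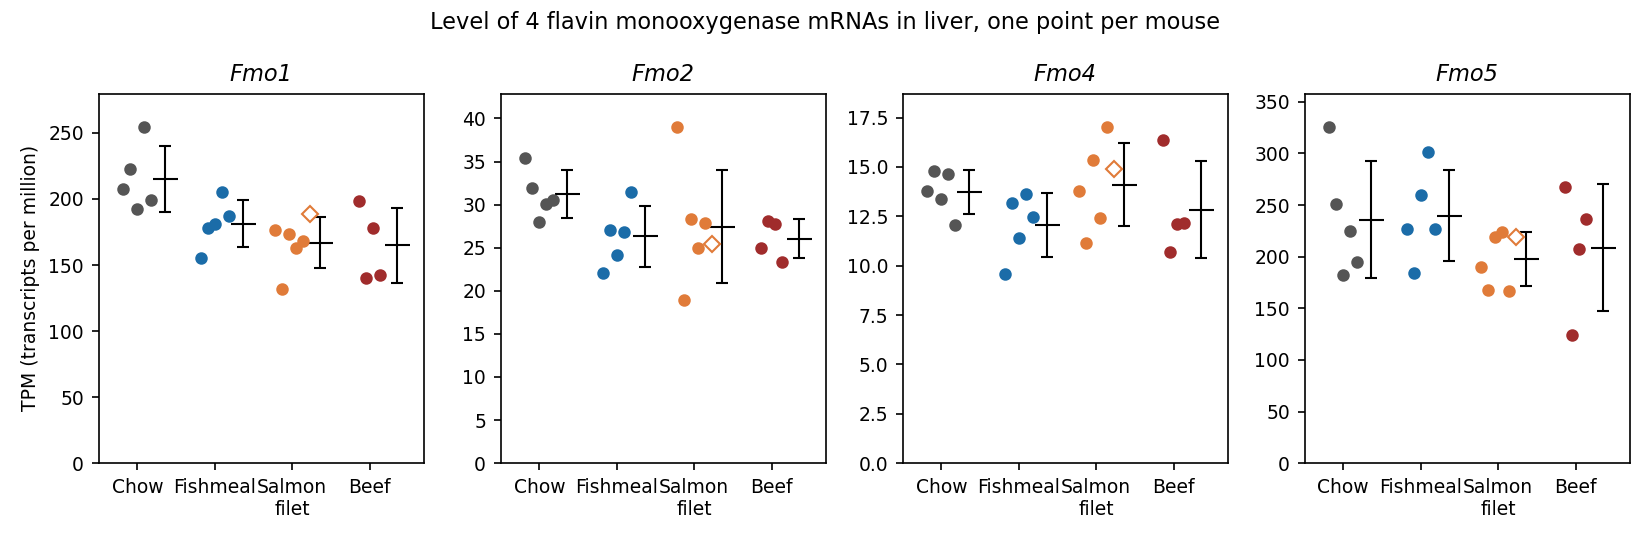
Level of Fmo1, Fmo2, Fmo4 and Fmo5 in liver (TPM, linear axis from 0, a separate scale in each panel) for chow-fed mice and mice fed HFD with fishmeal, salmon filet or beef. Each point is 1 mouse, the bars give the mean and SD, and the open diamond is mouse 31, shown with salmon filet as labelled; Fmo1 sits at 193 to 254 TPM with chow and at 132 to 205 TPM in the HFD groups.

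Which of these genes differ between HFD-fed and chow-fed mice was the first comparison. Fmo1 was lower in HFD-fed mice and passed the test, while Fmo2, Fmo4 and Fmo5 did not pass. In chow-fed mice Fmo1 was at 207, 222, 193, 254 and 199 TPM (mice 1, 2, 5, 7 and 10). In the 15 HFD-fed mice it was at 132 TPM at the lowest, 177 TPM at the median and 205 TPM at the highest. Relative to library size, 13 of 15 HFD-fed mice were below the lowest chow-fed mouse and the groups overlapped, with fishmeal mouse 16 (205 TPM) and beef mouse 32 (198 TPM) at the top of the HFD-fed range. Mean levels were 215 ± 24.6 TPM with chow (SD, n = 5) and 171 ± 21.3 TPM with HFD (SD, n = 15). The log2 fold change was -0.28 with an SE of 0.083 (95% interval -0.45 to -0.11), a difference of -17.5% (edgeR adjusted p = 0.0359).

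Of the 4 members, 1 was called lower and 0 were called higher, where called means an adjusted p under 0.05 over all 17120 genes tested. In this comparison 9.75% of all genes tested were called, 5.21% lower and 4.54% higher. The size of the Fmo1 difference was not unusual, as 30.1% of genes tested had a larger absolute log2 fold change. The median log2 fold change of the 4 members was -0.13, against 0.0050 over all genes tested.

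The call for Fmo1 lay close to the threshold. With 1 mouse left out at a time it was made in 13 of 20 fits, with a log2 fold change of -0.31 to -0.23. It was lost without chow mouse 1 (adjusted p = 0.0893), chow mouse 2 (0.0611), chow mouse 7 (0.134), fishmeal mouse 13 (0.0533), salmon filet mouse 22 (0.0512), salmon filet mouse 26 (0.0548) or beef mouse 40 (0.0513). Without mouse 35, whose protein-coding share was the lowest, it was kept (log2 fold change -0.27, adjusted p = 0.0428), and without mouse 31 as well (-0.28, adjusted p = 0.0392). DESeq2 gave an adjusted p of 0.0136 and limma on log2(TPM + 1) of 0.0343, whereas edgeR without a filter on low counts gave 0.0654.

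**Figure D2:**
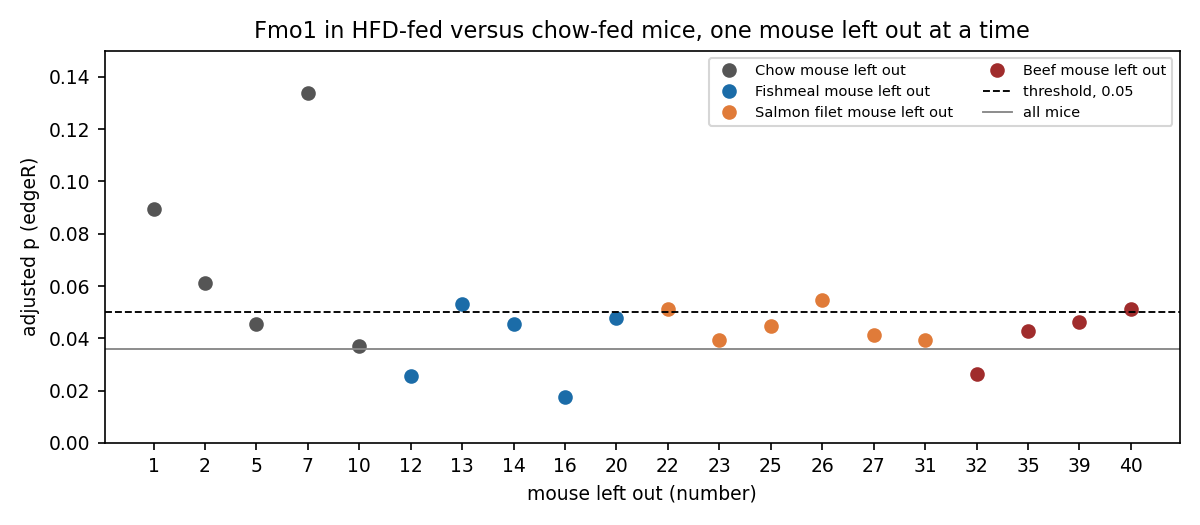
Adjusted p of Fmo1 in HFD-fed versus chow-fed mice (edgeR, linear axis) with the mouse named on the horizontal axis left out of the fit. The dashed line is the threshold of 0.05 and the grey line the value with all mice (0.0359); 13 of 20 points lie under the threshold, and leaving out chow mouse 7 gives the highest value, 0.134.

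Other measures of the libraries moved with diet. A clock score, the mean level of 4 genes that peak with Arntl minus that of 6 that peak with Dbp (centred log2 CPM, counts scaled to library size), ran from 1.11 to 3.22 in chow-fed mice and from -3.91 to 2.24 in HFD-fed mice. The 6 Dbp-type genes of this score were all called higher with HFD. The hour at which each mouse was killed is not given in the sources used here. As labelled, the score reached at most 0.78 with fishmeal and -0.099 with beef, below every chow-fed mouse, and 2.24 with salmon filet. In fishmeal or beef versus chow as labelled, diet and score therefore cannot be told apart. A call lost there with the score as a covariate decides nothing. Counted as beef, mouse 31 (2.24) would put beef in the chow range, and no fit with the score was run in that grouping. Among all HFD-fed mice only mice 22 (1.29) and 31, both labelled salmon filet, reached the chow range. In HFD or salmon filet versus chow, diet and score were therefore hard to tell apart too, and neither a lost nor a kept call separates them. With the clock score as a covariate, the log2 fold change of Fmo1 was -0.19 with an SE of 0.11 and the call was lost (adjusted p = 0.515), and calls over all genes fell from 1669 to 289. Markers of T cells were called lower for 5 of 8 genes and those of B cells for 5 of 5, where 5.21% of all genes tested were called lower. The summed T cell markers were at 4.17 to 7.54 TPM with chow and at 1.86 to 5.17 TPM with HFD, the summed B cell markers at 6.45 to 16.4 and 2.59 to 7.21 TPM, and their part in the Fmo1 difference was not tested. Hepatocyte markers were called lower for 1 of 7 genes (Serpina1e) and higher for 0, and their summed level overlapped between chow (132400 to 149900 TPM) and HFD (108400 to 146600 TPM). Kupffer cell, stellate cell and cholangiocyte markers were called for 0 of 6, 0 of 7 and 0 of 6 genes. Of the liver endothelial markers 1 of 7 (Clec4g) was called lower, of the periportal hepatocyte markers 1 of 8 (Sox9) was called lower, and of the pericentral hepatocyte markers 2 of 9 (Cyp1a2 and Axin2) were called lower and 1 (Lect2) higher.

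Fmo2 was at 28.0 to 35.5 TPM in chow-fed mice, with mouse 5 lowest and mouse 1 highest. HFD-fed mice ran from 19.0 TPM through a median of 26.8 TPM to 39.0 TPM, and both ends of that range came from salmon filet (mice 23 and 22). Relative to library size, 11 of 15 HFD-fed mice were below the lowest chow-fed mouse. The log2 fold change was -0.18 with an SE of 0.099 (95% interval -0.38 to 0.024, adjusted p = 0.273).

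Fmo4 was nearly equal in mean, at 13.7 ± 1.11 TPM with chow (SD, n = 5) and 13.1 ± 2.11 TPM with HFD (SD, n = 15). The chow-fed mice were at 13.8, 14.8, 13.4, 14.7 and 12.0 TPM (mice 1, 2, 5, 7 and 10), and the HFD-fed mice lay on both sides of them, from 9.58 TPM in fishmeal mouse 12 to 17.0 TPM in salmon filet mouse 27, with a median of 12.5 TPM. Relative to library size, 1 of 15 HFD-fed mice was below the chow-fed range, fishmeal mouse 14 and not mouse 12, and 4 were above it. Its log2 fold change was -0.023 with an interval of -0.21 to 0.16 (adjusted p = 0.91), and a decrease of 13.4% or an increase of 11.8% is within that interval.

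Fmo5 had the widest spread. The chow-fed mice were at 326, 251, 183, 225 and 195 TPM (mice 1, 2, 5, 7 and 10), and the HFD-fed mice at 125 TPM at the lowest (beef mouse 35), 219 TPM at the median and 301 TPM at the highest (fishmeal mouse 16). The ranges overlapped, and the log2 fold change was -0.086 with an interval of -0.41 to 0.24 (adjusted p = 0.788), so that a change of -24.6% to 17.7% is within the error.

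Next, each HFD group was set against the same 5 chow-fed mice, so these comparisons share their controls and are not independent. With fishmeal, Fmo1 was at 155, 178, 181, 205 and 187 TPM (mice 12, 13, 14, 16 and 20), and 4 of 5 mice were below the lowest chow-fed mouse. Its log2 fold change was -0.19 with an SE of 0.10 (adjusted p = 0.384). Fmo2 was at 22.1, 27.1, 24.1, 26.8 and 31.4 TPM in the same mice, also with 4 of 5 below the chow-fed range, at a log2 fold change of -0.20 with an SE of 0.097 (adjusted p = 0.334). The values for Fmo4 and Fmo5 were -0.14 with an SE of 0.090 and 0.088 with an SE of 0.18 (adjusted p = 0.501 and 0.873). Of the 4 members 0 were called, where 3.38% of all genes tested were called. At an unadjusted p under 0.05, edgeR passed 0 of the 4 and 16.9% of all genes tested, and DESeq2 called 0 of the 4.

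With salmon filet, Fmo1 was at 132 TPM at the lowest, 171 TPM at the median and 189 TPM at the highest, below the lowest chow-fed mouse (193 TPM) in 6 of 6 mice. The groups did not overlap, as was the case for 4.99% of all genes tested. The log2 fold change was -0.35 with an SE of 0.094 (95% interval -0.55 to -0.15), a difference of -21.6%, which missed the threshold at an adjusted p of 0.051. With mouse 31 counted as beef it passed, at -0.39 with an SE of 0.094 (adjusted p = 0.0404), and the groups again did not overlap, which held for 8.39% of genes tested. As labelled, 0 of 4 members were called where 4.46% of all genes tested were called. With mouse 31 counted as beef 1 of 4 was called, against 4.42% of all genes tested. DESeq2 on the labelled groups called Fmo1 (adjusted p = 0.00469), as did edgeR fitted on all 4 groups at once (0.0413). DESeq2 called 1488 of 17405 genes tested and the fit on all 4 groups 602 of 17360, against 740 of 16605 in the main fit. At an unadjusted p under 0.05 edgeR passed 1 of the 4, Fmo1, and 21.5% of all genes tested.

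The other members did not pass with salmon filet. Fmo5, at 167 to 224 TPM, was below the chow mean in 6 of 6 mice, with a log2 fold change of -0.24 and an SE of 0.15 (adjusted p = 0.371, or -0.27 and 0.326 with mouse 31 counted as beef). Fmo2, at 19.0 to 39.0 TPM, had a log2 fold change of -0.18 with an SE of 0.13 (adjusted p = 0.431, or -0.16 and 0.499 with mouse 31 counted as beef). Fmo4 was at 11.1 to 17.0 TPM, with 3 of 6 mice above the highest chow-fed mouse, and its log2 fold change was 0.052 with an SE of 0.099 (adjusted p = 0.795, or 0.037 and 0.858 with mouse 31 counted as beef).

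With beef, Fmo1 was at 198, 140, 178 and 143 TPM (mice 32, 35, 39 and 40), with 3 of 4 mice below the lowest chow-fed mouse relative to library size. Its log2 fold change was -0.29 with an SE of 0.11 (adjusted p = 0.212, or -0.27 and 0.184 with mouse 31 counted as beef). Fmo5 was at 267, 125, 207 and 236 TPM in these mice, on both sides of the chow mean, at a log2 fold change of -0.096 with an SE of 0.21 (adjusted p = 0.845, or -0.099 and 0.818). Fmo2 was at 25.0, 28.1, 27.8 and 23.4 TPM with a log2 fold change of -0.16 and an SE of 0.11 (adjusted p = 0.517, or -0.18 and 0.385). Fmo4 was at 16.4, 10.7, 12.1 and 12.2 TPM with a log2 fold change of -0.0049 and an SE of 0.11 (adjusted p = 0.988), or 0.021 with mouse 31 counted as beef (adjusted p = 0.939). Of the 4 members 0 were called, against 2.48% of all genes tested (0 of 4 against 3.05% with mouse 31 counted as beef). At an unadjusted p under 0.05 edgeR passed 1 of the 4, Fmo1, and 17.8% of all genes tested. DESeq2 called 0 of the 4.

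**Figure D3:**
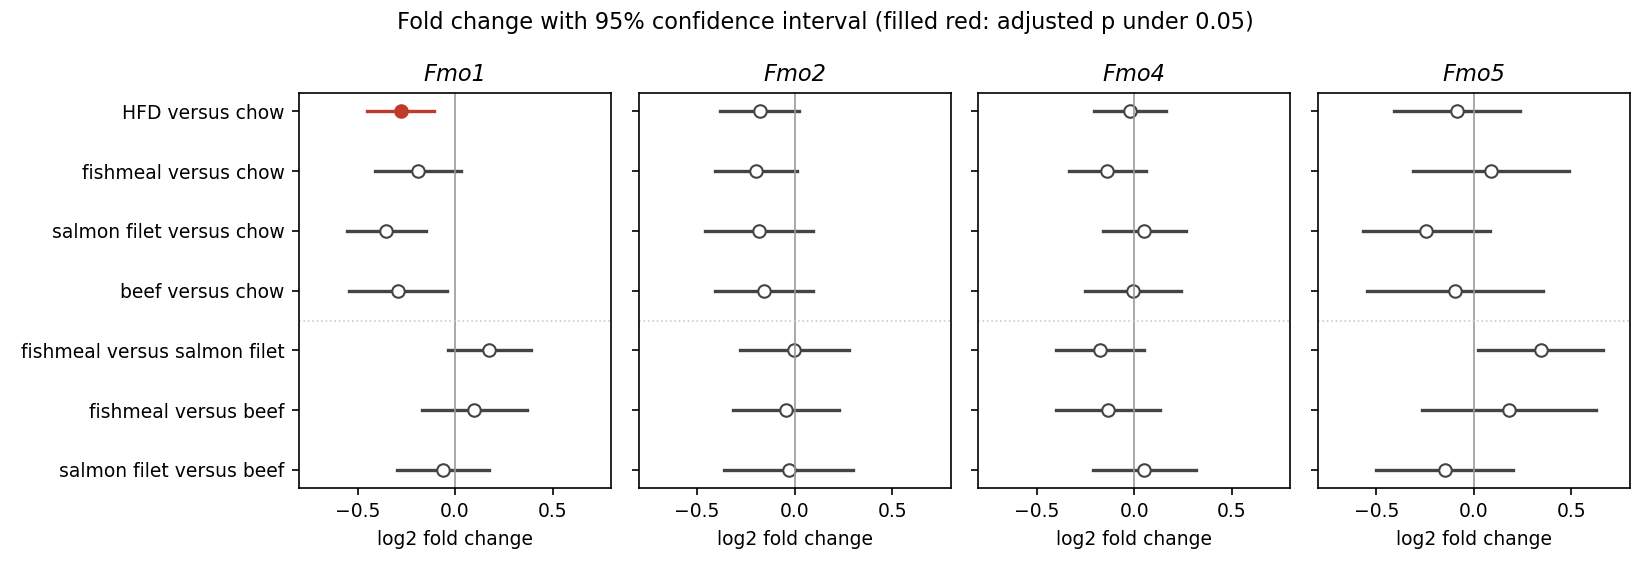
Log2 fold change of Fmo1, Fmo2, Fmo4 and Fmo5 in 7 comparisons, with the first-named group relative to the second (edgeR, groups as labelled; lines are 95% confidence intervals). The filled red point, Fmo1 in HFD versus chow at -0.28, is the only one with an adjusted p under 0.05. With mouse 31 counted as beef, which is not drawn, Fmo1 in salmon filet versus chow passed as well (-0.39, edgeR adjusted p = 0.0404). The interval for Fmo5 in fishmeal versus salmon filet, from 0.024 to 0.66, lies above 0 without passing after adjustment.

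The diets with different protein sources were then compared with each other within HFD, where fish and red meat differ in the trimethylamine precursors they carry. Between fishmeal and salmon filet, Fmo5 had the largest difference of the 4 genes. It was at 227, 184, 260, 301 and 227 TPM with fishmeal (mice 12, 13, 14, 16 and 20) and at 167 to 224 TPM with salmon filet (median 204). Relative to library size, 3 of 5 fishmeal mice were above the highest salmon filet mouse and the groups overlapped. The log2 fold change was 0.34 with an SE of 0.15 (95% interval 0.024 to 0.66), a difference of 26.9%, and the edgeR adjusted p was 0.999. With mouse 31 counted as beef it was 0.36 with an SE of 0.16 (adjusted p = 0.92). Fmo1 was higher than the salmon filet mean in 5 of 5 fishmeal mice in CPM, although mouse 12 was below it in TPM (155 against a mean of 167), at a log2 fold change of 0.18 with an SE of 0.099 (95% interval -0.037 to 0.39, adjusted p = 0.999, or 0.20 and 0.92 with mouse 31 counted as beef). Fmo4 differed by -0.18 with an SE of 0.11 and Fmo2 by -0.0011 with an SE of 0.13 (adjusted p = 0.999 for both). Of the 4 members 0 were called, against 0.157% of all genes tested (0 of 4 against 0.17% with mouse 31 counted as beef). At an unadjusted p under 0.05 edgeR passed 1 of the 4, Fmo5, and 4.24% of all genes tested. DESeq2 called 0 of the 4.

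Between fishmeal and beef the log2 fold changes were 0.099 for Fmo1, -0.044 for Fmo2, -0.14 for Fmo4 and 0.18 for Fmo5, each with an adjusted p of 1. Their intervals reached from -0.17 to 0.37, from -0.31 to 0.23, from -0.40 to 0.13 and from -0.26 to 0.63. Between salmon filet and beef they were -0.064, -0.029, 0.053 and -0.15, also with an adjusted p of 1, and intervals of -0.30 to 0.17, -0.36 to 0.30, -0.21 to 0.32 and -0.50 to 0.20. In both comparisons 0 of 4 members were called, where 0.00607% and 0% of all genes tested were called. At an unadjusted p under 0.05, 0 of 4 passed in both, where 2.33% and 3.71% of all genes tested passed. With mouse 31 counted as beef the shares of all genes called were 0.0245% and 0%, again with 0 of 4 members. DESeq2 called 0 members in each. Over all genes in salmon filet versus beef, edgeR called 0 with 613 at an unadjusted p under 0.05, and DESeq2 called 1. These intervals do not show that the diets act alike: for Fmo5 in fishmeal versus beef, a change of -16.7% to 54.6% is within the error.

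The 4 genes were next compared across mice of the same diet group, by subtracting the group mean from each mouse's log2 CPM. Fmo1 and Fmo4 varied together, with a Pearson's r of 0.638 and a Spearman's rho of 0.651 over 20 mice (permutation within groups, p = 0.00804 and 0.00423, Benjamini-Hochberg adjusted over 6 pairs 0.0482 and 0.0254). Leaving out the 2 mice farthest from the median of Fmo1 (chow mouse 7 and salmon filet mouse 23) gave an r of 0.597, leaving out each mouse in turn gave 0.541 to 0.718, the 15 HFD-fed mice alone gave 0.663, and mouse 31 counted as beef gave 0.644. Salmon filet mouse 23 and beef mouse 32, the first low and the second high in both genes, lie at the ends of this relation. Fmo1 and Fmo5, the abundant genes on different chromosomes, had an r of 0.465 and a rho of 0.477 (permutation p = 0.0644 and 0.0598, adjusted 0.193 and 0.179), with an r of 0.565 without the same 2 mice.

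The remaining pairs had weaker relations that did not pass. For Fmo4 and Fmo5 r was 0.312 and rho 0.296 (permutation p = 0.196 and 0.224, adjusted 0.392 and 0.336), with an r of 0.367 without the 2 farthest mice. Fmo1 and Fmo2, both on chromosome 1, had an r of 0.227 and a rho of 0.337 (permutation p = 0.394 and 0.188, adjusted 0.591 and 0.336), and r was 0.081 without the 2 farthest mice. The values for Fmo2 and Fmo4 were 0.137 and 0.224 (permutation p = 0.658 and 0.407, adjusted 0.79 and 0.488), and r was -0.133 without the 2 farthest mice. For Fmo2 and Fmo5 they were -0.051 and -0.114 (permutation p = 0.823 and 0.655, adjusted 0.823 and 0.655), with an r of -0.42 without them.

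**Figure D4:**
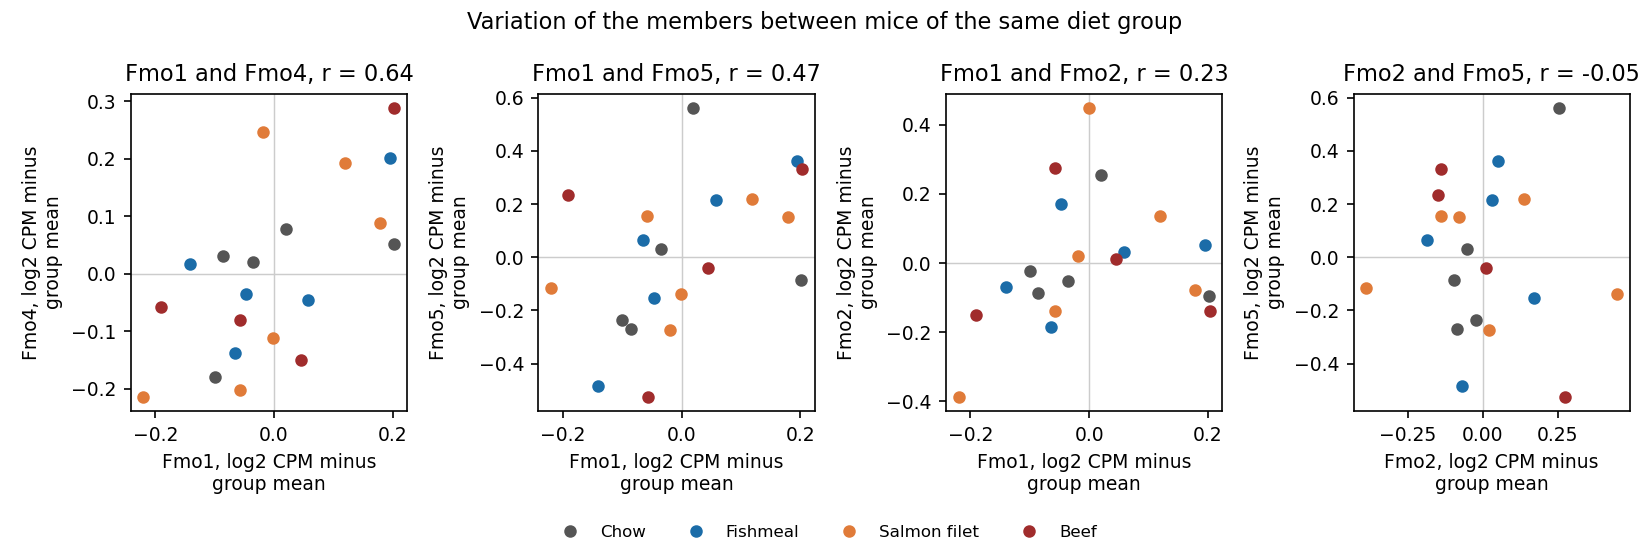
Variation between mice of the same diet group for 4 of the 6 pairs of genes. Each point is 1 of 20 mice, coloured by diet group as labelled, both axes give log2 CPM minus the mean of the group, and r is Pearson's correlation; points for Fmo1 and Fmo4 rise together (r = 0.638), those for Fmo2 and Fmo5 do not (r = -0.051).

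Genes with the pattern most like each member were sought among 11500 protein-coding genes outside the flavin monooxygenases, by Pearson's r over the same 20 mice with group means removed, as a description with no test. Fmo1 was most like Akr1d1, a steroid reductase of bile acid synthesis (r = 0.851), and Slc22a27, an organic anion transporter (0.821). Of these, Slc22a27 differed with HFD in the opposite direction to Fmo1, at a log2 fold change of 0.49 (edgeR adjusted p = 0.0159), whereas Akr1d1 was not called. Fmo5 was most like Rnf139, a ubiquitin ligase (0.911), Gdi2, which binds Rab proteins (0.897), and Akr1e1, an aldo-keto reductase (0.896). For Fmo4 the nearest genes were Fam126a (0.816), Rassf6 (0.778) and Acsl5, an acyl-CoA synthetase (0.767). Fmo2 had no gene as near, with Snx12, a sorting nexin, at 0.640, Slco1a4, an organic anion transporter of the hepatocyte, at 0.635 and Obfc1, a telomere-binding protein, at 0.633. For Slco1a4, rho was 0.391 and r was 0.423 without the 2 mice farthest from the median of Fmo2.

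Genes around these enzymes were read from lists. Of 15 genes of trimethylamine and choline handling, 14 were tested in HFD versus chow and 0 were called, where 9.75% of all genes tested were called. At an unadjusted edgeR p under 0.05, 4 of the 14 passed (Bhmt and Chka among them), near the 24.4% of all genes tested that passed. The median log2 fold change was -0.032, against 0.0050 over all genes. Bhmt, which passes a methyl group from betaine to homocysteine, was at 1689 ± 218 TPM with chow and 1280 ± 323 TPM with HFD (log2 fold change -0.34, edgeR adjusted p = 0.205). Bhmt, and Chka in the next sentence, were outside the rule for named genes and were chosen after their values were seen. In beef versus chow 1 of 14 tested genes was called, against 2.48% of all genes tested: Chka, a kinase that commits choline to phosphatidylcholine (log2 fold change -1.47 with an SE of 0.20, edgeR adjusted p = 0.00531). With mouse 31 counted as beef Chka was not called (-1.05 with an SE of 0.31, adjusted p = 0.0942). Nor was Chka called in the labelled groups with the clock score as a covariate (-0.40 with an SE of 0.25, edgeR adjusted p = 0.608). As labelled, that score did not overlap between beef and chow. In fishmeal and in salmon filet versus chow 0 of 14 were called, where 3.38% and 4.46% of all genes tested were called. Chka was at 22.8 to 30.3 TPM with chow (median 26.5), 6.79 to 32.6 with fishmeal (median 9.05), 6.42 to 26.0 with salmon filet (median 19.1) and 6.32 to 14.4 with beef (median 7.76). Without fishmeal mouse 16 it was called in fishmeal versus chow (edgeR adjusted p = 0.00519, against 0.259 with all mice) and in HFD versus chow (0.0232, against 0.0859).

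Of 11 genes that supply FAD or NADPH, 1 was called lower and 0 higher in HFD versus chow, where 5.21% and 4.54% of all genes tested were. The median log2 fold change of these genes was -0.044. The called gene was G6pdx, the entry enzyme of the pentose phosphate pathway that makes NADPH, at 2.83 to 15.1 TPM with chow (median 11.8), 3.40 to 3.94 with fishmeal, 4.26 to 7.90 with salmon filet and 2.86 to 4.91 with beef. Its log2 fold change was -1.0 with an SE of 0.25 (edgeR adjusted p = 0.0139), and the call was lost without chow mouse 1 (adjusted p = 0.0811) or chow mouse 7 (0.0877) and with the clock score as a covariate (0.484). Each HFD group alone versus chow had 0 of 11 called, against 3.38% (fishmeal), 4.46% (salmon filet) and 2.48% (beef) of all genes tested. In fishmeal versus chow, however, G6pdx was called without chow mouse 5 (edgeR adjusted p = 0.0153) or chow mouse 10 (0.0467), against 0.0817 with all mice.

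Of 10 regulators of liver oxidation genes, 1 was called higher and 1 lower in HFD versus chow, where 4.54% and 5.21% of all genes tested were. The median log2 fold change of these genes was -0.018. Ahr, the receptor for dioxin-like ligands, was at 26.3 to 33.7 TPM with chow (median 27.7), 15.8 to 24.5 with fishmeal, 19.7 to 22.5 with salmon filet and 17.7 to 21.8 with beef. All 15 HFD-fed mice were below the lowest chow-fed mouse. Of all genes tested, 1.64% had HFD-fed and chow-fed mice that did not overlap, in either direction. The log2 fold change of Ahr was -0.45 with an SE of 0.063 (edgeR adjusted p = 9.85e-05), it was called in 20 of 20 fits with 1 mouse left out, and with the clock score as a covariate it was -0.47 with an SE of 0.088 (adjusted p = 0.00621). Against the shared chow-fed mice Ahr was called lower in each HFD group, at -0.41 with fishmeal (adjusted p = 0.0283), -0.46 with salmon filet (0.0046, or 0.00932 with mouse 31 counted as beef) and -0.48 with beef (0.0285, or 0.0157). The salmon filet call was made in 11 of 11 fits with 1 mouse left out. The fishmeal call was made in 4 of 10, and was lost without chow mouse 2 (0.0857), 5 (0.0647) or 7 (0.0528) or fishmeal mouse 13 (0.0715), 16 (0.0524) or 20 (0.0787). The beef call was made in 4 of 9, and was lost without chow mouse 2 (0.0797), 5 (0.0611) or 7 (0.0599) or beef mouse 39 (0.0981) or 40 (0.0994). With the clock score as a covariate Ahr was not called in any of the 3 (0.336, 0.062 and 0.642 in the fishmeal, salmon filet and beef groups). Its log2 fold changes were then -0.49, -0.49 and -0.33, with SEs of 0.15, 0.096 and 0.22, against SEs of 0.090, 0.071 and 0.099 without the score. As labelled, the score did not overlap with chow in the fishmeal and beef groups, so the lost calls there decide nothing. In HFD and in salmon filet versus chow only mice 22 and 31 reached the chow range of the score. The kept call and the lost call there do not separate diet from score.

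Ppara, the fatty acid receptor that drives fatty acid oxidation genes, was at 43.7 to 92.2 TPM with chow and at 53.2 to 178 with fishmeal, 71.5 to 127 with salmon filet and 111 to 144 with beef. Its log2 fold change with HFD was 0.85 with an SE of 0.24 (edgeR adjusted p = 0.0288), lost without chow mouse 1 (0.104), chow mouse 2 (0.0817) or chow mouse 7 (0.108) and with the clock score as a covariate (0.663). In beef versus chow it was called higher too (1.1 with an SE of 0.24, adjusted p = 0.0338, or 0.0226 with mouse 31 counted as beef). That call was lost without chow mouse 1 (0.0585), 2 (0.0873) or 7 (0.0717) and without beef mouse 35 (0.0793), 39 (0.0781) or 40 (0.105). With the clock score as a covariate, which did not overlap between beef and chow as labelled, the call was lost too (0.97). Nr1i2, Nr1i3, Hnf4a and Nfe2l2, receptors and factors of drug metabolism and hepatocyte identity, were among the 8 regulators not called in HFD versus chow. Fmo6 and Fmo9, also listed, had 9 and 1 counts over all 20 libraries and were below the filter for testing.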

How the data were processed

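Libraries of liver mRNA from 20 mice kept strand information and were read from both ends. Per the authors, trimming used BBDuk, mapping used HISAT2 1.2.1, and featureCounts 1.4.6-p1 gave the counts per Ensembl gene. The handling of strand and of multi-mapping reads is not given in the sources used here. The deposited values are raw counts and, in a second table, TPM made by the authors from the counts. The printed genome build is a human one, so positions here come from GENCODE M21 on GRCm38.

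Groups follow the sample labels. The members and lists were chosen with earlier results of these data known. Differences were tested with edgeR 4.0 in R 4.3 (TMM, filterByExpr at a minimum count of 10, two-sided quasi-likelihood F-test, Benjamini-Hochberg adjustment over all genes tested, called at an adjusted p under 0.05), with a separate fit for each of 7 comparisons. Separate mice are the replicates. CPM used TMM factors, with a prior count of 2 on the log scale. Correlations used 100000 permutations within groups.

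The clock score is the mean centred log2 CPM of Arntl, Npas2, Clock and Nfil3 minus that of Dbp, Tef, Per3, Nr1d1, Nr1d2 and Ciart. Named genes are the 4 members, up to 4 called genes of each pathway list with the largest change in HFD versus chow, and the 3 protein-coding genes most like each member (mean CPM 1 or more). Some genes so chosen were left out and are not reported. Alternatives were DESeq2 1.42, its size factors, no filter, 1 fit on all 4 groups, limma 3.58 on log2(TPM + 1) for genes averaging 0.5 TPM or more, the clock score as a covariate, mouse 31 counted as beef and each mouse left out. The tools were tested on simulated data. Intervals from single fits give the error of the fold change between groups, estimated from the spread between these mice, and not the range of single mice.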

Additional observations from a re-analysis of the deposited data

How the results depend on the processing

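Besides the fits with a mouse left out, 188 alternative values were computed, of which 169 kept direction and side of the threshold, 3 passed it newly, 2 lost it and 14 changed sign. In HFD versus chow the count of members called went from 1 to 0 without a filter and with the clock score as a covariate. In salmon filet versus chow it went from 0 to 1 with DESeq2, with 1 fit on all 4 groups and with mouse 31 counted as beef. With a mouse left out it ran from 0 to 1 in both. In salmon filet versus chow the 1 such fit with a call left out mouse 31, and it is the same fit as with mouse 31 counted as beef. The cause was not tested.

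The sign changes were among values that were not called. Fmo4 in HFD versus chow was 0.0418 with the clock score. In beef versus chow Fmo4 was 0.0049 with DESeq2, 0.0047 with its size factors, 0.0034 in the fit on all 4 groups and 0.0209 with mouse 31 counted as beef. With the clock score, which did not overlap between beef and chow as labelled, Fmo1, Fmo4 and Fmo5 were 0.149, 0.345 and 0.314, with SEs of 0.22, 0.23 and 0.47. Fmo2 was 6e-04 in the fit on all 4 groups and 0.0028 with the clock score in fishmeal versus salmon filet, 0.0083 with limma in fishmeal versus beef, and 0.0449 with limma and 0.0185 with mouse 31 counted as beef in salmon filet versus beef, where limma gave 0.0258 for Fmo1. With a mouse left out, 320 values held 289 of the same kind, 7 lost and 1 gained calls and 23 changed signs. The ranges that crossed 0 were, for Fmo1 in salmon filet versus beef, -0.1221 to 2e-04, for Fmo2 -0.0927 to 0.0649 in fishmeal versus beef, -0.0715 to 0.0925 in fishmeal versus salmon filet and -0.1381 to 0.06 in salmon filet versus beef, for Fmo4 -0.1091 to 0.0424 in beef versus chow and -7e-04 to 0.095 in salmon filet versus chow, and for Fmo5 -0.2068 to 0.0637 in beef versus chow, -0.002 to 0.2634 in fishmeal versus chow and -0.1523 to 0.0837 in HFD versus chow. The correlation of Fmo2 and Fmo4 ran from -0.062 to 0.317 with a mouse left out, and was -0.133 without the 2 mice farthest from the median. That of Fmo2 and Fmo5 ran from -0.281 to 0.173.

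Calls over all genes moved by more than 1.5 times in places. In HFD versus chow they were 1669 and with the clock score 289. In fishmeal versus chow they were 556, and 1198 with DESeq2, 837 in the fit on all 4 groups, 367 with limma and 35 with the clock score. In salmon filet versus chow they were 740, and 1488 with DESeq2, 437 with limma and 60 with the clock score. In beef versus chow they were 411, and 1092 with DESeq2, 780 in the fit on all 4 groups and 0 with the clock score. In fishmeal versus salmon filet they were 26, and 84 with DESeq2 and 42 without a filter. In fishmeal versus beef 1 was called, and 30 with DESeq2, 10 without a filter, 8 with the clock score, 4 in the fit on all 4 groups, 4 with mouse 31 counted as beef and 0 with limma.

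No paired analysis was possible because mouse numbers are not shared between groups, and replicate numbers are in order of accession only. Groups of 4 to 6 mice leave wide intervals, for Fmo5 in beef versus chow from -31.6% to 27.9%, so differences within them were not detectable here.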

Other observations

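The relation of each member to the clock score of its library was examined after the data were seen, with group means removed from both, over 20 mice. Fmo1 had a Pearson's r of 0.437 and a Spearman's rho of 0.499 (permutation p = 0.0838 and 0.042), which did not pass adjustment over the 4 genes (0.335 and 0.168). Without beef mouse 40 and salmon filet mouse 25, the farthest from the median of the score, r was 0.632. For Fmo4 r was 0.217 and rho 0.322 (permutation p = 0.437 and 0.216, adjusted 0.82 and 0.432), and r was 0.485 without the same 2 mice. Fmo5 had an r of 0.123 and a rho of 0.186 (permutation p = 0.615 and 0.466, adjusted 0.82 and 0.621), and r was 0.39 without the same 2 mice. Fmo2 had an r of 0.055 and a rho of 0.056 (permutation p = 0.851 and 0.837, adjusted 0.851 and 0.837), and r was 0.118 without them. The mice of a group differed widely in this score, from -3.31 to 2.24 with salmon filet and from -3.24 to 0.78 with fishmeal.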
